A study of Mus musculus with 8 samples.

Results

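Brown adipose tissue (BAT) of mice that lack the linker histone H1.2 in adipocytes was compared with BAT of WT mice over the protein-coding genes with a mean of at least 1 FPKM (fragments per kilobase of gene length, scaled to the size of the library) in the 4 BAT libraries. This rule kept 10344 of the 44422 genes listed, 22196 of which are protein-coding, and these genes are called members below. Of the members, Arsk had the mean closest above the limit, at 1.00 FPKM, from WT libraries at 0.966 and 0.790 FPKM and H1.2AKO libraries at 1.22 and 1.02 FPKM. C3ar1 lay closest below it, from WT libraries at 0.976 and 1.40 FPKM and H1.2AKO libraries at 0.784 and 0.840 FPKM. All mice were 10-week-old C57BL/6 males kept at 22 °C that carried loxP-flanked H1.2 alleles (H1.2 flox/flox). H1.2AKO mice also carried adiponectin-Cre, which is active in adipocytes, and the WT group consisted of littermates without Cre. Cells of the tissue that are not adipocytes kept the gene. Each genotype had 2 BAT libraries, each a pool of RNA from several mice (2 mice per pool in the study's methods and 3 in the notes deposited with the data), so n counts pools. The 4 libraries of inguinal white fat (iWAT) in the same series entered the fit only for the spread and for the comparison of tissues.

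BAT burns fatty acids and glucose to produce heat. Its adipocytes hold many mitochondria with the uncoupling protein Ucp1, take up fatty acids through lipoprotein lipase, and also make fatty acids and sterols themselves. Linker histones of the H1 family bind DNA where it enters and leaves the nucleosome, and the variants are encoded by separate genes that are expressed side by side in most tissues.

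H1.2 itself, named Hist1h1c (ENSMUSG00000036181, mm10, chromosome 13, 23738808 to 23740367, + strand), stood at 36.8 and 43.3 FPKM in WT replicates 1 and 2 but reached only 0.177 and 1.97 FPKM in H1.2AKO replicates 1 and 2. These values rest on 848, 1054, 4 and 45 reads. Both H1.2AKO libraries lay far below both WT libraries, and the first held less than the second. The log2 difference, which here always means H1.2AKO minus WT on the scale of log2(FPKM + 0.5), was -4.97 (SE 0.53, adjusted p = 0.0717 by limma and 0.0429 by limma-voom). Of the other linker histones, H1f0, the variant of non-dividing cells, stood at 64.0 and 84.9 FPKM in the WT pools against 88.1 and 112 FPKM in the H1.2AKO pools. The groups did not overlap, and the log2 difference was 0.43 (SE 0.18, adjusted p = 0.40 by limma). Hist1h1e, which encodes H1.4, measured 1.18 and 3.09 FPKM in WT, compared with 1.47 and 2.37 FPKM in H1.2AKO, and the groups overlapped. The libraries were made from poly(A) RNA, and most replication-dependent histone transcripts end without a poly(A) tail, so levels of these histone genes reflect only the tailed part.

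The BAT libraries held 16152205 and 16327012 reads over the listed genes in WT and 16211103 and 16800395 in H1.2AKO. Skeletal muscle RNA was uneven between them. Over the 63 members on the muscle lists the mean of log2(FPKM + 0.5) was 4.66 and 4.91 in WT, 1.18 in H1.2AKO replicate 1 and 3.85 in H1.2AKO replicate 2. Of these 63 members, 62 lay lower in both H1.2AKO libraries than in both WT libraries, against 18.9% of all genes tested in BAT. The median log2 difference over the 63 was -2.47. The gap between the H1.2AKO libraries had a median of 2.83 on the log2 scale for muscle genes and of 0.15 for the 10110 members that do not track muscle. A member tracks muscle here if on a muscle list or at least 1 apart on the log2 scale between the WT libraries of iWAT. These libraries differ strongly in muscle RNA (mean levels 1.15 and 3.94 in replicates 1 and 2), and 234 members met the rule. A gap in either direction counts, so genes lower in the library with more muscle RNA are included. In a bulk tissue, fewer cells of a type and less RNA per cell cannot be told apart. Actn2, a sarcomere crosslinker, was at 20.1 and 23.5 FPKM in WT and at 1.14 and 7.52 FPKM in H1.2AKO. Myoglobin (Mb) stood at 158 and 192 FPKM in the WT pools against 6.27 and 80.3 FPKM in the H1.2AKO pools. The rule on tracking misses some genes with the same profile. Hspb7, a small heat shock protein of heart and skeletal muscle that was chosen with its values in view, measured 9.89 and 12.97 FPKM in WT, compared with 0.448 and 3.18 FPKM in H1.2AKO, and it was counted as not tracking.

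The tissue label matched its markers. Ucp1 was at 2801 and 2490 FPKM in WT and at 2856 and 2603 FPKM in H1.2AKO, and the groups overlapped. Of the 21 brown adipocyte markers that are members, 11 had a log2 difference above 0 and 10 below, and the mean level of the list lay between 5.66 and 5.78 in all 4 libraries. Of the 22 general adipocyte markers, 16 were below 0, and 10 were lower without overlap between the groups, against 18.9% of all genes tested. Their mean levels were 8.47 and 8.52 in WT against 8.38 and 8.41 in H1.2AKO. The median log2 difference was -0.14, and -0.27 with the muscle level as a covariate. Of the other cell types, the 15 macrophage members had mean levels of 2.79 and 3.40 in WT against 2.77 and 2.96 in H1.2AKO. The 18 endothelial members were at 3.88 and 3.85 in WT and at 3.88 and 4.05 in H1.2AKO. Immediate early and heat shock genes, which respond to handling, had levels of 4.96 and 4.07 in WT against 4.14 and 4.94 in H1.2AKO, so they split the replicates of each genotype and not the genotypes.

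**Figure D1:**
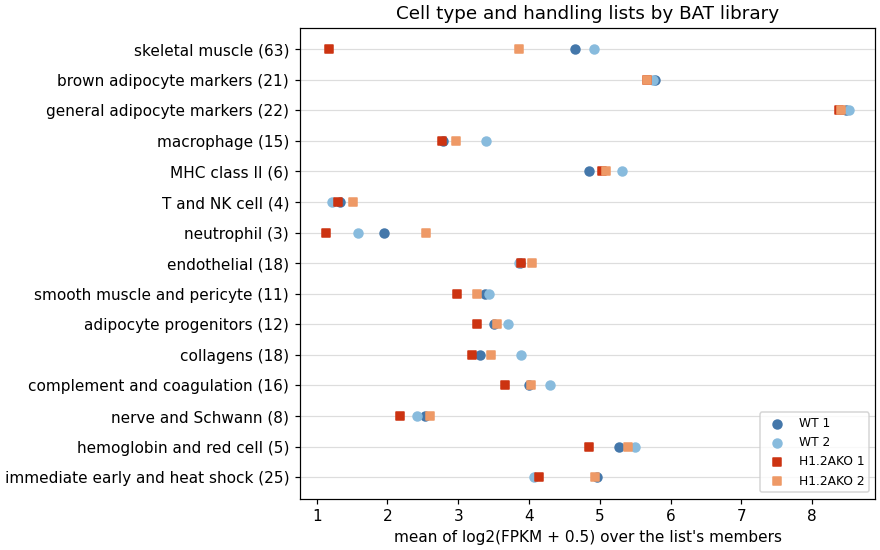
Mean of log2(FPKM + 0.5) over the members of 15 gene lists (number of members in brackets) in the 4 BAT libraries, with WT libraries as circles and H1.2AKO libraries as squares. The muscle level was 1.18 in H1.2AKO replicate 1 and between 3.85 and 4.91 in the other libraries, while the brown adipocyte level stayed between 5.66 and 5.78.

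Gene by gene, limma called 0 of the 10344 members at an adjusted p under 0.05, against 0% of all 13190 genes tested in BAT. At an unadjusted p under 0.05, 625 members were higher in H1.2AKO (6.24% of all genes tested were) and 667 were lower (6.3% of all genes tested). Because the smallest p of a 2-sided exact permutation test is 0.333 with 2 pools per genotype, single members were tested only by models fitted across all genes. Limma-voom on the whole reads recovered from the FPKM values called 18 members, against 0.152% of all genes tested, 15 of them lower (0.129% of all genes tested were called lower). These 18 members did not overlap between the groups. In all, 2373 members were higher in both H1.2AKO libraries than in both WT libraries (22.4% of all genes tested) and 2010 were lower in both (18.9%), so groups that do not overlap are common in this comparison. For the 18 called members the gap between the H1.2AKO libraries had a median of 0.11 on the log2 scale and a maximum of 1.87, which was that of Hist1h1c itself. With the muscle level as a covariate all 18 kept the sign of their difference, as did 8163 of the 10110 members that do not track muscle. The call itself favours large differences, small gaps and groups that do not overlap, so these values of the 18 are only a description. Limma called 0 members with this covariate.

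Beside Hist1h1c, the lower members called by limma-voom held 6 genes of the cell surface, the matrix or secreted signals. Svep1 (ENSMUSG00000028369, mm10, chromosome 4, 58042442 to 58206859, - strand), which encodes a large secreted adhesion protein of the extracellular matrix, stood at 6.23 and 6.92 FPKM in the WT pools against 2.05 and 1.87 FPKM in the H1.2AKO pools. Its log2 difference was -1.53 (SE 0.11, adjusted p = 0.059 by limma and 0.0029 by limma-voom). Cldn1 (ENSMUSG00000022512, mm10, chromosome 16, 26356642 to 26371841, - strand), a claudin of tight junctions, measured 4.59 and 5.61 FPKM in WT, compared with 1.15 and 1.26 FPKM in H1.2AKO, a log2 difference of -1.71 (SE 0.14, adjusted p = 0.059 and 0.0407). Cntfr, the binding receptor for ciliary neurotrophic factor, was at 10.5 and 11.7 FPKM in WT and at 4.11 and 3.24 FPKM in H1.2AKO, a log2 difference of -1.48 (SE 0.16, adjusted p = 0.0717 and 0.0407). Osmr, the receptor subunit for oncostatin M, stood at 2.58 and 2.44 FPKM in the WT pools against 1.36 and 1.41 FPKM in the H1.2AKO pools (adjusted p = 0.128 and 0.0473). Both Cntfr and Osmr bind cytokines of the Il6 family.

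Csf1, the growth factor of macrophages, measured 10.0 and 9.42 FPKM in WT, compared with 3.77 and 4.86 FPKM in H1.2AKO, a log2 difference of -1.09 (SE 0.14, adjusted p = 0.0942 by limma and 0.0452 by limma-voom). Ccl2, a chemokine that attracts monocytes, was at 10.1 and 9.52 FPKM in WT and at 1.63 and 3.18 FPKM in H1.2AKO, a log2 difference of -1.88 (SE 0.24, adjusted p = 0.0966 and 0.0478). For both genes the H1.2AKO libraries lay well below the WT libraries. Macrophage markers lay closer to 0. All 15 had a log2 difference below 0 with a median of -0.21. But only 2 of them, Cd14 included, were lower without overlap between the groups, against 18.9% of all genes tested. The median of the 15 turned to 0.09 when WT replicate 2 was left out. Of all genes tested, 52.5% had a log2 difference above 0, and the median was 0.01. Cd14, a receptor for bacterial lipopolysaccharide, measured 6.77 and 7.30 FPKM in WT, compared with 4.12 and 5.68 FPKM in H1.2AKO. The part of macrophage content in the lower Csf1 and Ccl2 levels was not tested.

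Another 7 of the lower members called by limma-voom encode transporters and metabolic proteins. Slc22a5, the carnitine transporter of the plasma membrane, was at 38.4 and 33.5 FPKM in WT and at 21.8 and 20.2 FPKM in H1.2AKO, a log2 difference of -0.76 (SE 0.09, adjusted p = 0.0942 by limma and 0.0452 by limma-voom). Slc27a2, which activates very long-chain fatty acids, stood at 81.3 and 99.8 FPKM in the WT pools against 48.5 and 41.5 FPKM in the H1.2AKO pools (log2 difference -0.998). Ppara, the nuclear receptor that drives genes of fatty acid oxidation, measured 32.6 and 27.7 FPKM in WT, compared with 17.6 and 17.0 FPKM in H1.2AKO. Ucp3, a mitochondrial carrier related to Ucp1, was at 47.4 and 49.7 FPKM in WT and at 28.3 and 30.6 FPKM in H1.2AKO, a log2 difference of -0.71 (SE 0.10, adjusted p = 0.12 and 0.0473). Glul, glutamine synthetase, was the most abundant of the called members, at 843 and 927 FPKM in WT and at 486 and 441 FPKM in H1.2AKO. Slc4a4, a sodium bicarbonate cotransporter, stood at 19.2 and 19.5 FPKM in the WT pools against 9.75 and 10.4 FPKM in the H1.2AKO pools. Gcnt2, an enzyme that branches carbohydrate chains, measured 2.90 and 2.97 FPKM in WT, compared with 1.23 and 1.12 FPKM in H1.2AKO. For these 7 genes the adjusted p lay between 0.0429 and 0.0478 by limma-voom.

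Only 3 members were called higher by limma-voom. Ddit3, which encodes the stress-induced transcription factor Chop, was at 18.6 and 15.2 FPKM in WT and at 31.4 and 32.8 FPKM in H1.2AKO, a log2 difference of 0.91 (SE 0.11, adjusted p = 0.0966 by limma and 0.0454 by limma-voom). Myo5b, a motor protein of recycling vesicles, stood at 4.91 and 4.15 FPKM in the WT pools against 8.35 and 8.26 FPKM in the H1.2AKO pools. Gm11808, for which no role is given here, measured 64.4 and 74.7 FPKM in WT, compared with 130 and 133 FPKM in H1.2AKO. How reads shared by near-identical genes were counted is not given in the sources used here, so the value of Gm11808 and those of other predicted or ribosomal-like genes are uncertain.

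**Figure D2:**
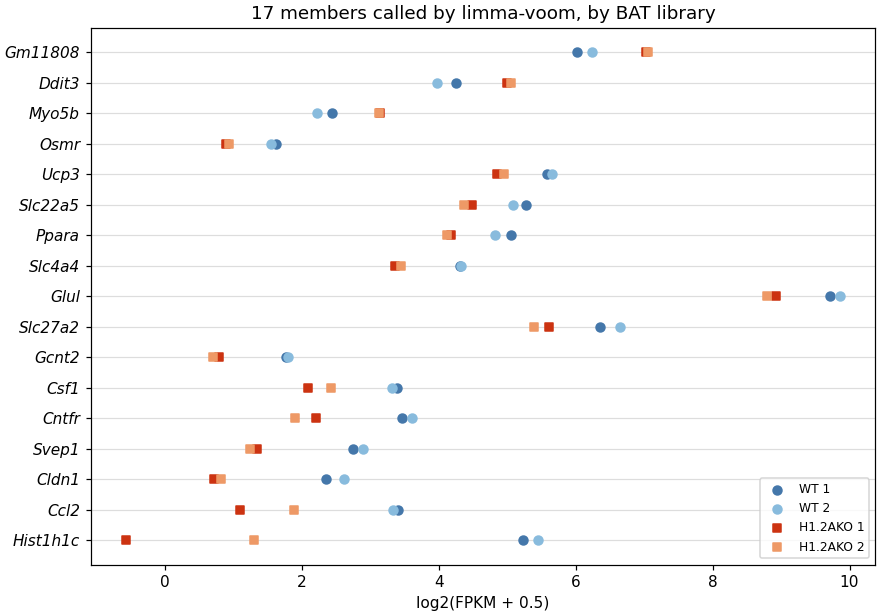
Level of 17 of the 18 members called by limma-voom, as log2(FPKM + 0.5), in the 4 BAT libraries, with WT libraries as circles and H1.2AKO libraries as squares. In each gene the squares lay on 1 side of the circles, with 14 genes lower and 3 higher in H1.2AKO, and the squares of all genes but Hist1h1c lay within 0.785 of each other. Small p values in these same libraries chose the genes.

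Among the members with the smallest p values that no model called, Ptx3, a secreted pentraxin of innate immunity, was at 2.38 and 2.87 FPKM in WT (94 and 120 reads) and at 0.103 and 0.432 FPKM in H1.2AKO (4 and 17 reads). Ifi205, an interferon-inducible gene, was at 5.00 and 4.24 FPKM in WT and at 2.14 and 2.37 FPKM in H1.2AKO. Slc25a33, a mitochondrial carrier of pyrimidine nucleotides, stood at 24.4 and 24.9 FPKM in the WT pools against 15.4 and 16.0 FPKM in the H1.2AKO pools. Agpat9, an acyltransferase that starts glycerolipid synthesis, measured 5.65 and 5.86 FPKM in WT, compared with 3.19 and 2.88 FPKM in H1.2AKO. In the other direction, Rspo4, a secreted enhancer of Wnt signalling, was at 0.143 and 0.325 FPKM in WT (5 and 12 reads) and at 2.06 and 1.81 FPKM in H1.2AKO (71 and 63 reads), a log2 difference of 1.74 (SE 0.23, adjusted p = 0.0989 by limma). Tubb4b, a beta-tubulin, was at 135 and 134 FPKM in WT and at 197 and 207 FPKM in H1.2AKO. Bbc3, which encodes the pro-apoptotic protein Puma, stood at 3.41 and 4.28 FPKM in the WT pools against 8.16 and 7.95 FPKM in the H1.2AKO pools. Isyna1, which makes inositol phosphate from glucose-6-phosphate, measured 17.2 and 18.2 FPKM in WT, compared with 30.9 and 26.3 FPKM in H1.2AKO. The remaining higher members chosen by p value, Dcaf15, Nipsnap1, Trip6, Bhlhe40, Gipc1, Rps4l, Rpp30 and Thg1l, had log2 differences from 0.47 to 0.75 and adjusted p values from 0.125 to 0.176 by limma.

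Most genes of sterol and fatty acid synthesis stood higher in H1.2AKO BAT. Apart from the members already given as called or as leading by p, neither model called a gene named in what follows (adjusted p from 0.128 to 0.537 by limma and from 0.0533 to 0.655 by limma-voom), and their values are given as levels in the 4 libraries. Of 25 sterol synthesis members, 24 had a log2 difference above 0, and 12 were higher at an unadjusted p under 0.05 (0 lower). Of all genes tested, 6.24% were higher and 6.3% lower at this p, and these shares apply to the lists below too. The median of the sterol list was 0.49 and lay between 0.43 and 0.56 with each BAT library left out in turn. It was 0.31 with the muscle level as a covariate, under which 19 of the 25 were above 0. Mvk, mevalonate kinase, was at 7.86 and 7.75 FPKM in WT and at 11.6 and 13.3 FPKM in H1.2AKO. Pmvk, which acts on the product of Mvk, stood at 43.3 and 47.5 FPKM in the WT pools against 71.3 and 87.3 FPKM in the H1.2AKO pools. Srebf2, the transcription factor that drives sterol genes, differed less, at 12.0 and 10.7 FPKM in WT and at 15.4 and 14.2 FPKM in H1.2AKO, a log2 difference of 0.37 (SE 0.10, adjusted p = 0.248 by limma).

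Fatty acid synthesis had 22 of 25 members above 0, with 8 higher and 1 lower at an unadjusted p under 0.05 and a median of 0.51. With the muscle covariate the median was 0.32, and 18 of the 25 were above 0. In this list H1.2AKO replicate 2 was the highest library, with a mean level of 7.88 against 7.63 in H1.2AKO replicate 1 and 7.17 and 7.35 in WT. Scd2, a fatty acid desaturase, was at 47.2 and 53.8 FPKM in WT and at 120 and 168 FPKM in H1.2AKO. It meets the rule on tracking muscle, but with a gap opposite to that of muscle RNA. In WT iWAT it was at 86.0 FPKM in replicate 1 and at 40.2 FPKM in replicate 2, which held more muscle RNA. Of the 25 members of each of these lists, 5 meet this rule. Mlxipl, which encodes the glucose-responsive transcription factor Chrebp, stood at 84.5 and 90.8 FPKM in the WT pools against 133 and 160 FPKM in the H1.2AKO pools. Mid1ip1, an activator of acetyl-CoA carboxylase, measured 21.4 and 20.4 FPKM in WT, compared with 36.5 and 55.0 FPKM in H1.2AKO. The lower member was Gpam, a mitochondrial glycerol-3-phosphate acyltransferase, at 103 and 114 FPKM in WT and at 77.1 and 77.7 FPKM in H1.2AKO.

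Promoters of the lipid, clock and stress genes are shown because each of these groups has a known promoter element and holds members named here. RefSeq gives a promoter of 300 bases (250 before and 50 after the start, GRCm38.p6) for 7832 of the 10344 members. The CCAAT box (CCAAT on either strand), bound by the factor NF-Y that works together with sterol regulatory element binding proteins, was in 42% of these promoters, in 17 of 18 of the sterol synthesis list and in all 9 of those with an unadjusted p under 0.05. Mvk carried 5 boxes and Srebf2 carried 1, shown 5′ to 3′ on the gene's strand with the boxes in capitals. A match is a description of the letters and no measurement of binding.
Mvk promoter (chr5:114444019-114444318, + strand): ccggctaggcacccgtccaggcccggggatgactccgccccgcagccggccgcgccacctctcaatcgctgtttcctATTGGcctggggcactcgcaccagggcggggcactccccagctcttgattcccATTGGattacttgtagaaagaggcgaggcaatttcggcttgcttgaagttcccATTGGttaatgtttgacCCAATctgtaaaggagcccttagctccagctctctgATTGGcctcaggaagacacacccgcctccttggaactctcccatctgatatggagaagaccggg
Srebf2 promoter (chr15:82147019-82147318, + strand): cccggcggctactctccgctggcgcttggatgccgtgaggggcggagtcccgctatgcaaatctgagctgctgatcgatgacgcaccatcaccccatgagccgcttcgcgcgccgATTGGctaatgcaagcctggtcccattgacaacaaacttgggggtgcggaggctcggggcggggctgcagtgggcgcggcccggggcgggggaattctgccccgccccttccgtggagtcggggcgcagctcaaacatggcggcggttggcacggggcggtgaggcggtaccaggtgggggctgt

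Most glycolysis and pentose phosphate genes lay above 0, while glycogen genes were split. Of 20 glycolysis members, 14 had a log2 difference above 0, with 8 higher and 1 lower at an unadjusted p under 0.05 and a median of 0.31 (0.19 without H1.2AKO replicate 2). Gpi1, glucose-6-phosphate isomerase, was at 232 and 271 FPKM in WT and at 362 and 431 FPKM in H1.2AKO. Aldoa, an aldolase, stood at 2009 and 2067 FPKM in the WT pools against 2827 and 2997 FPKM in the H1.2AKO pools. Slc2a4, the insulin-responsive glucose transporter Glut4, measured 210 and 204 FPKM in WT, compared with 283 and 287 FPKM in H1.2AKO. Of the 11 members of the pentose phosphate pathway and NADPH supply, 8 were above 0, with 5 higher and 1 lower at an unadjusted p under 0.05. Their median of 0.38 became 0.19 without WT replicate 1 and 0.21 without H1.2AKO replicate 2. Of the 11, Tkt and Me1 are also in the fatty acid synthesis list, so these lists do not count separate genes. Rpia, ribose-5-phosphate isomerase, was at 5.39 and 5.09 FPKM in WT and at 7.27 and 6.68 FPKM in H1.2AKO. Taldo1, transaldolase, stood at 496 and 512 FPKM in the WT pools against 645 and 688 FPKM in the H1.2AKO pools. Nnt, the mitochondrial transhydrogenase that also makes NADPH, went the other way, at 2.11 and 2.48 FPKM in WT and at 1.17 and 1.67 FPKM in H1.2AKO. Pygl, glycogen phosphorylase, measured 229 and 282 FPKM in WT, compared with 442 and 494 FPKM in H1.2AKO, a log2 difference of 0.88 (SE 0.18, adjusted p = 0.196 by limma). Of the 15 glycogen metabolism members, 8 were above 0 and 7 below, and the median of 0.05 became -0.0057 without H1.2AKO replicate 1.

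Entry of pyruvate into the mitochondrion was mixed at the level of its regulators. Pdhb, a subunit of pyruvate dehydrogenase, was at 830 and 956 FPKM in WT and at 1204 and 1459 FPKM in H1.2AKO. Pdk4, the kinase that inhibits this enzyme, stood at 480 and 376 FPKM in the WT pools against 291 and 316 FPKM in the H1.2AKO pools. Pdp2, the phosphatase that activates it, was also lower, at 20.8 and 19.8 FPKM in WT and at 12.1 and 11.7 FPKM in H1.2AKO. Over the 26 members of pyruvate entry and the citric acid cycle 22 were above 0, with 3 higher and 2 lower at an unadjusted p under 0.05. Their median of 0.21 became 0.11 without WT replicate 2 and 0.089 with the muscle covariate.

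Genes of fatty acid uptake and oxidation lay on both sides of 0. Lpl, lipoprotein lipase, measured 539 and 570 FPKM in WT, compared with 310 and 309 FPKM in H1.2AKO, a log2 difference of -0.84 (SE 0.12, adjusted p = 0.128 by limma and 0.0533 by limma-voom). Acsl5, an acyl-CoA synthetase, was higher, at 103 and 79.1 FPKM in WT and at 154 and 146 FPKM in H1.2AKO. Of the 17 members of fatty acid uptake and activation, 11 were below 0 (4 lower and 1 higher at an unadjusted p under 0.05) and the median was -0.13 (-0.082 without H1.2AKO replicate 1 and -0.053 with the muscle covariate). Ehhadh, the peroxisomal bifunctional enzyme, stood at 56.9 and 71.7 FPKM in the WT pools against 31.2 and 32.7 FPKM in the H1.2AKO pools. The 21 peroxisomal members were split, with 9 above and 12 below 0, a median of -0.012 and 3 lower at an unadjusted p under 0.05. In mitochondrial beta-oxidation 0 of 20 members had an unadjusted p under 0.05. The thioesterases, which release free fatty acids from acyl-CoA, split between family members. Acot11 was at 30.8 and 33.3 FPKM in WT and at 56.3 and 74.0 FPKM in H1.2AKO, whereas Acot4 stood at 3.78 and 4.01 FPKM in the WT pools against 2.50 and 1.93 FPKM in the H1.2AKO pools. Acot1 measured 8.87 and 6.91 FPKM in WT, compared with 2.78 and 2.14 FPKM in H1.2AKO. It meets the rule on tracking muscle, but with a gap opposite to that of muscle RNA. In WT iWAT it was at 1.92 FPKM in replicate 1 and at 0.567 FPKM in replicate 2, which held more muscle RNA. Acot1 also has close relatives with which it may share reads. Of the lipid droplet proteins, Plin2 was at 297 and 343 FPKM in WT and at 416 and 483 FPKM in H1.2AKO, while Cidec stood at 512 and 529 FPKM in the WT pools against 415 and 301 FPKM in the H1.2AKO pools.

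Most genes of the respiratory chain and the proteasome lay above 0 by small amounts. Of 37 complex I members 36 were above 0 (median 0.16), and of 28 members of complexes II to IV 27 were (median 0.18), yet only 3 and 1 of them had an unadjusted p under 0.05. Ndufb8, a complex I subunit, measured 161 and 136 FPKM in WT, compared with 191 and 196 FPKM in H1.2AKO. WT replicate 2 was the lowest library for both lists. Without it the medians were 0.079 and 0.052, and with the muscle covariate they were 0.038 and 0.0016. Proteasome genes had mean levels on the log2(FPKM + 0.5) scale of 5.29 and 5.35 in WT against 5.49 and 5.52 in H1.2AKO. Of 37 members 35 were above 0, and 33 were higher without overlap between the groups, against 22.4% of all genes tested. At an unadjusted p under 0.05, 11 were higher, against 6.24% of all genes tested. The median was 0.19 (0.15 to 0.22 with each BAT library left out in turn and 0.15 with the muscle covariate). Psmc2, an ATPase of the regulatory particle, was at 17.4 and 19.4 FPKM in WT and at 23.3 and 26.0 FPKM in H1.2AKO. Psmc4, another ATPase of that particle, stood at 39.5 and 41.6 FPKM in the WT pools against 50.8 and 50.5 FPKM in the H1.2AKO pools. Psmd14, the deubiquitinase of the particle, measured 21.9 and 23.5 FPKM in WT, compared with 29.6 and 31.1 FPKM in H1.2AKO. Mitochondrial ribosomal proteins had 63 of 76 members above 0 with 10 higher at an unadjusted p under 0.05. Their median of 0.14 became 0.046 without WT replicate 2 and 0.026 with the muscle covariate, under which 44 of the 76 were above 0. Genes of the unfolded protein response lay the other way, with 18 of 21 below 0, a median of -0.09 (-0.051 without WT replicate 2) and 2 lower at an unadjusted p under 0.05. Dnajb9, a chaperone cofactor of the endoplasmic reticulum, was at 42.1 and 41.4 FPKM in WT and at 35.3 and 28.8 FPKM in H1.2AKO.

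**Figure D3:**
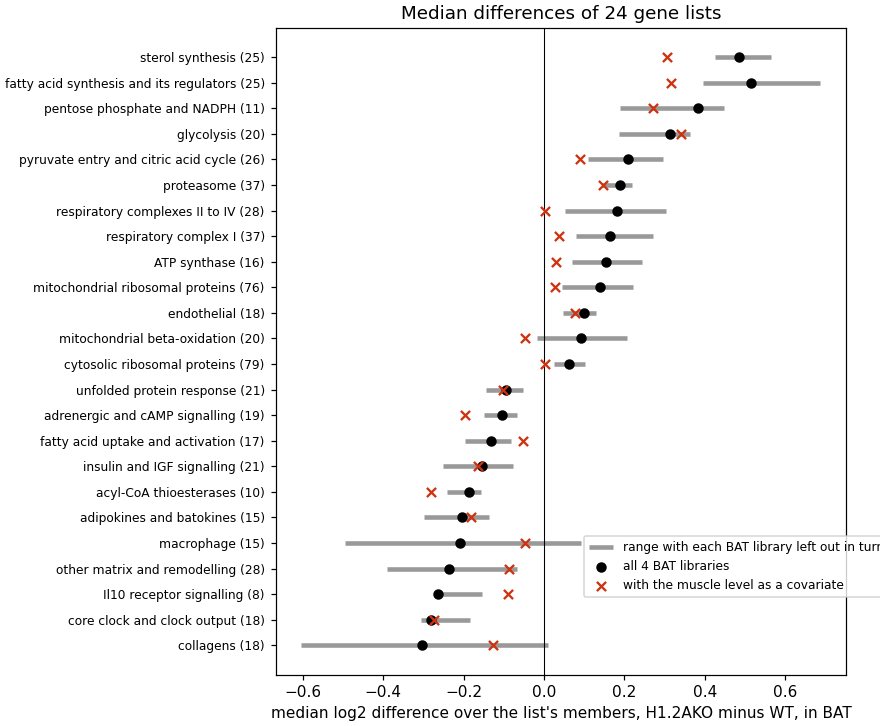
Median log2 difference (H1.2AKO minus WT) over the members of 24 gene lists (number of members in brackets) from all 4 BAT libraries (black points), the range with each BAT library left out in turn (grey bars) and the value with the muscle level as a covariate (crosses). Among the lists drawn, sterol synthesis (0.49) and fatty acid synthesis (0.51) lay highest and collagens (-0.30) lowest. The 24 are a pick from 56 lists that leaves out lower ones, such as fast fibre sarcomere genes of muscle (-2.71). Over all 56, the median kept its sign in 28 under both scalings, the covariate and each library left out. The bars of collagens, macrophage markers and mitochondrial beta-oxidation reached across 0.

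Serine and one-carbon genes and targets of the stress factor Atf4 were split, with 8 of 17 members above 0. At an unadjusted p under 0.05, 4 were higher and 1 was lower. The median of -0.096 became 0.066 without H1.2AKO replicate 1, 0.13 without H1.2AKO replicate 2 and 0.12 with the muscle covariate. The list includes the regulators Atf4, Atf5, Ddit3 and Trib3, which were higher in both H1.2AKO libraries. Atf4 stood at 104 and 87.5 FPKM in the WT pools against 126 and 137 FPKM in the H1.2AKO pools. Atf5, a related factor, measured 121 and 195 FPKM in WT, compared with 255 and 306 FPKM in H1.2AKO. Cth, which makes cysteine from cystathionine, was lower, at 2.34 and 2.21 FPKM in WT and at 1.10 and 0.904 FPKM in H1.2AKO. Trib3, a pseudokinase induced by Atf4 and Ddit3 that was chosen with its values in view, was at 4.34 and 5.67 FPKM in WT and at 6.16 and 10.3 FPKM in H1.2AKO. The Atf4 element TGATGNAA, on either strand, was in 2.62% of the members' promoters and in 5 of 16 of this list. Of the 4 members of the list with a promoter and an unadjusted p under 0.05, Trib3 alone held it, with the element in capitals, after the start.
Trib3 promoter (chr2:152344011-152344310, - strand): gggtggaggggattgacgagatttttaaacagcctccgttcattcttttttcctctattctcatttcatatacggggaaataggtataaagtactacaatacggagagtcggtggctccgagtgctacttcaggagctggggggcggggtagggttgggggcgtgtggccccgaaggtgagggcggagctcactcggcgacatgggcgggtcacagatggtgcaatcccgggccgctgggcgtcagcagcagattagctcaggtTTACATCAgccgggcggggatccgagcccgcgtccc

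Clock genes were mostly lower. Of 18 members 15 were below 0 with a median of -0.28 (-0.30 to -0.18 with each BAT library left out in turn, nearest to 0 without H1.2AKO replicate 1, and -0.27 with the muscle covariate), and 5 were lower and 2 higher at an unadjusted p under 0.05. Dbp, a PAR bZIP factor that carries the rhythm to output genes, stood at 35.3 and 47.7 FPKM in the WT pools against 20.7 and 25.8 FPKM in the H1.2AKO pools. Tef, a factor of the same family, measured 39.8 and 40.3 FPKM in WT, compared with 31.5 and 29.3 FPKM in H1.2AKO. Hlf, the remaining factor of this family, was at 4.75 and 4.38 FPKM in WT and at 2.41 and 3.14 FPKM in H1.2AKO. Ciart, a repressor of the clock, stood at 6.86 and 8.57 FPKM in the WT pools against 5.58 and 3.98 FPKM in the H1.2AKO pools. Hlf and Ciart were chosen with their values in view. The 2 higher genes were Arntl, the core activator, at 2.15 and 1.85 FPKM in WT against 4.36 and 3.57 FPKM in H1.2AKO, and Bhlhe40, a repressor, at 32.0 and 37.0 FPKM in WT against 58.3 and 55.2 FPKM in H1.2AKO. The hour of tissue collection is not given in the sources used here. E-box elements were counted as well. The motif CACGTG, to which the Arntl and Clock pair binds, was in 12.2% of the members' promoters and in 5 of 15 of the clock list. Tef carried 1 and Ciart carried 3, shown in capitals.
Tef promoter (chr15:81802423-81802722, + strand): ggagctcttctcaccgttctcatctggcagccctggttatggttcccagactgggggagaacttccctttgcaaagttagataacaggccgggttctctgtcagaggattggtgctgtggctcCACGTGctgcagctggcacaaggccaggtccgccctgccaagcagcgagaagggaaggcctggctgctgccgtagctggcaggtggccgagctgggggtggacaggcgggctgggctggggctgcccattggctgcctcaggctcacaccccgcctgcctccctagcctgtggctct
Ciart promoter (chr3:95882179-95882478, - strand): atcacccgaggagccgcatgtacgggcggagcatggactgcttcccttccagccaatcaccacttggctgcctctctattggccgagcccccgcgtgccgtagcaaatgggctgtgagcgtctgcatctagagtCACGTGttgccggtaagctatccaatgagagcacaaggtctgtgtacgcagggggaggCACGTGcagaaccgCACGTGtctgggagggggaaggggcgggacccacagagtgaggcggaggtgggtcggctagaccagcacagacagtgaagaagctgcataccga

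**Figure D4:**
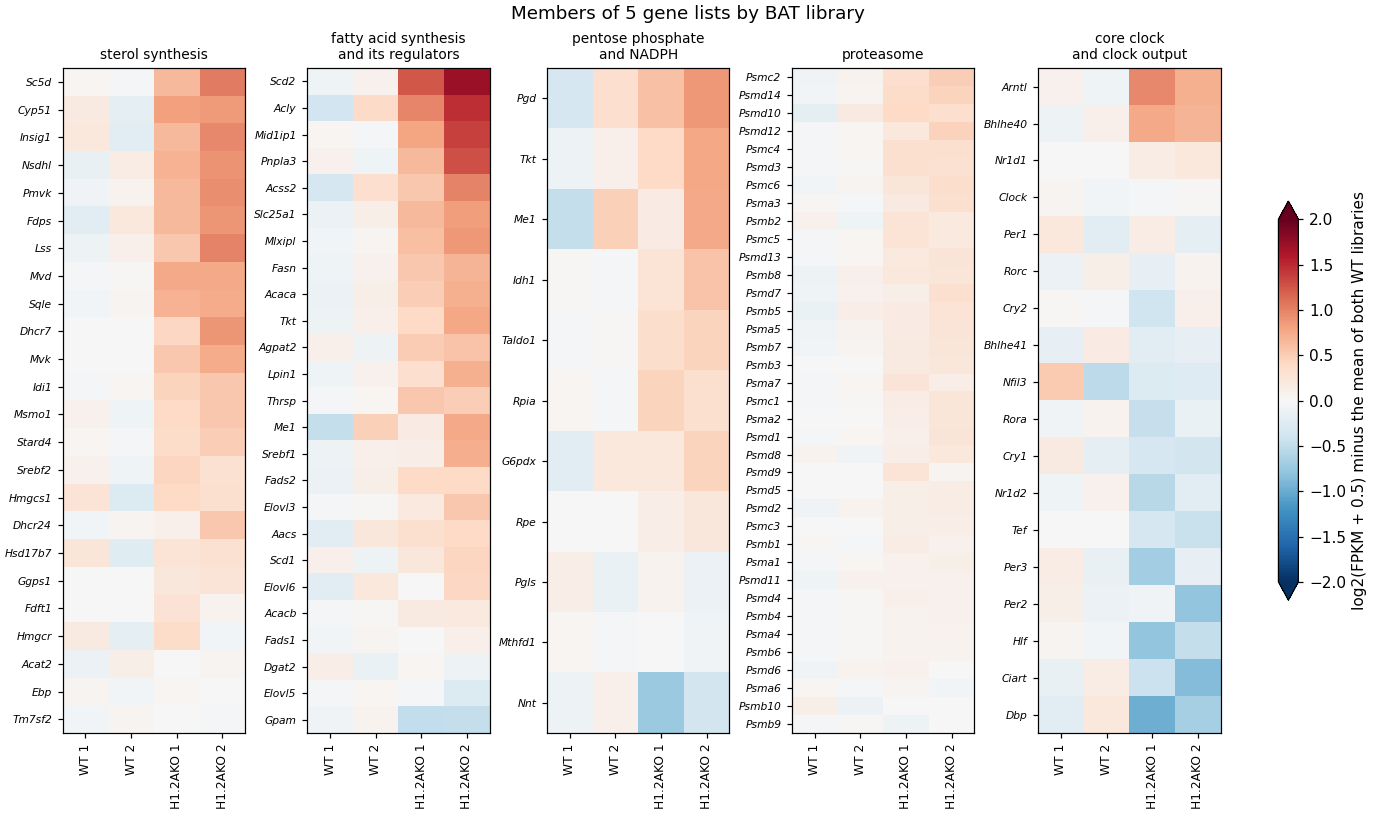
Members of 5 gene lists (all but 1 of sterol synthesis) in the 4 BAT libraries, coloured by log2(FPKM + 0.5) minus the mean of both WT libraries, from -2 (blue) to 2 (red). Sterol and fatty acid synthesis genes were mostly red in both H1.2AKO columns, with 23 of 24 and 22 of 25 genes above 0, proteasome genes were faintly red (35 of 37), and most clock genes were blue (15 of 18). Tkt and Me1 are drawn in both the fatty acid synthesis and the pentose phosphate list.

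Genes of hormone response lay on both sides of 0. Dio2, which activates thyroid hormone, measured 32.3 and 28.8 FPKM in WT, compared with 17.6 and 10.9 FPKM in H1.2AKO, a log2 difference of -1.11 (SE 0.22, adjusted p = 0.185 by limma). The 6 thyroid hormone members were split, with 2 above and 4 below 0 and log2 differences from -1.11 to 0.515. Their median was -0.02 and lay between -0.216 and 0.136 with each BAT library left out in turn. The metallothioneins, which bind metals and respond to glucocorticoids, were lower, with Mt2 at 778 and 619 FPKM in WT and at 350 and 227 FPKM in H1.2AKO. Mt1 was at 1141 and 1004 FPKM in WT and at 691 and 434 FPKM in H1.2AKO. Klf15, a glucocorticoid-induced transcription factor, stood at 27.4 and 36.5 FPKM in the WT pools against 17.4 and 19.5 FPKM in the H1.2AKO pools. In contrast Hsd11b1, the enzyme that regenerates active glucocorticoid, measured 68.5 and 67.8 FPKM in WT, compared with 111 and 94.7 FPKM in H1.2AKO. Of the 18 glucocorticoid response members 13 were below 0, with a median of -0.11 that turned to 0.08 without WT replicate 1, and with 3 lower and 2 higher at an unadjusted p under 0.05.

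Insulin signalling had 14 of 21 members below 0 with a median of -0.15 (-0.078 without WT replicate 2), and 3 were lower at an unadjusted p under 0.05. Irs1, an adaptor of the insulin receptor, was at 3.25 and 3.43 FPKM in WT and at 1.80 and 2.01 FPKM in H1.2AKO. Irs2, its relative, stood at 18.1 and 10.6 FPKM in the WT pools against 5.19 and 7.93 FPKM in the H1.2AKO pools, with a wide spread in both groups. Of the Il10 receptor genes, Il10ra, the ligand-binding chain, measured 0.949 and 1.30 FPKM in WT, compared with 1.22 and 1.72 FPKM in H1.2AKO, and the groups overlapped. Il10rb, the shared chain, was at 3.81 and 3.72 FPKM in WT and at 3.00 and 2.79 FPKM in H1.2AKO, a log2 difference of -0.33 (SE 0.10, adjusted p = 0.285 by limma). Stat3, the transcription factor downstream, stood at 20.5 and 18.1 FPKM in the WT pools against 14.1 and 12.2 FPKM in the H1.2AKO pools. Ppargc1a, a coactivator of mitochondrial genes, measured 9.78 and 11.6 FPKM in WT, compared with 8.47 and 6.91 FPKM in H1.2AKO. Adipoq, which encodes adiponectin and whose promoter drives the Cre, was at 912 and 944 FPKM in WT and at 833 and 707 FPKM in H1.2AKO. Nrg4, a ligand secreted by brown fat, stood at 16.8 and 19.5 FPKM in the WT pools against 12.9 and 12.6 FPKM in the H1.2AKO pools. Over the 15 adipokines and batokines that are members, 13 were below 0, with a median of -0.20 and 3 lower at an unadjusted p under 0.05.

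Most matrix and complement genes were below 0, with a wide spread between replicates. Of 28 members for other matrix and remodelling proteins 27 were below 0 (median -0.24, 4 lower at an unadjusted p under 0.05), and of 18 collagens 16 were (median -0.30, 2 lower). The mean collagen level was 3.31 and 3.89 in WT against 3.19 and 3.46 in H1.2AKO, so the groups overlapped, and the median became 0.0095 without WT replicate 2 and -0.14 without H1.2AKO replicate 1. For the other matrix list these medians were -0.067 and -0.092, and with the muscle covariate the median was -0.087. Col27a1, a fibrillar collagen, measured 12.8 and 17.8 FPKM in WT, compared with 6.79 and 10.8 FPKM in H1.2AKO. C3, the central complement component, was at 164 and 224 FPKM in WT and at 128 and 135 FPKM in H1.2AKO. Clu, a secreted chaperone that restrains complement, stood at 9.24 and 11.8 FPKM in the WT pools against 5.81 and 6.83 FPKM in the H1.2AKO pools. Of 16 complement and coagulation members 15 were below 0, with 3 lower at an unadjusted p under 0.05. Their median of -0.25 came nearest to 0 without H1.2AKO replicate 1 (-0.028), also lay within 0.1 of it without WT replicate 2, and was -0.11 with the muscle covariate, under which 6 of the 16 were above 0. Genes against oxidative and foreign compounds were split, with 14 of 27 members above 0 and 13 below and a median of 0.0022. At an unadjusted p under 0.05, 0 were higher and 4 lower. Among the lower members, Hmox1, heme oxygenase, measured 17.5 and 28.8 FPKM in WT, compared with 10.5 and 9.41 FPKM in H1.2AKO. Cyp2e1, a cytochrome P450, was at 89.9 and 191 FPKM in WT and at 46.1 and 23.1 FPKM in H1.2AKO, with large gaps inside each group. Endothelial genes had 13 of 18 members above 0 (median 0.10, but 0.048 without WT replicate 2 and 0.056 without H1.2AKO replicate 2), with Cdh5, the cadherin of endothelial junctions, at 42.2 and 37.9 FPKM in WT and at 48.3 and 47.3 FPKM in H1.2AKO.

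Whether the difference between genotypes was unequal in BAT and iWAT was tested for each gene as an interaction of tissue and genotype. It passed an adjusted p under 0.05 for 0 members, against 0% of all 14945 genes tested in either tissue. Whether pools of both tissues came from the same mice is not given in the sources used here. Of the 30 members with the smallest p values in BAT, 16 were apart in the same direction in iWAT, 5 were apart in the other direction and 9 overlapped there. Over all genes tested in iWAT, 16.7% were higher and 20.5% lower in both H1.2AKO libraries. These shares are no even base for the 30. Their choice used the gap between the WT libraries of iWAT and a spread estimated from all 8 libraries. It thus favours genes with close iWAT replicates, and Hist1h1c, the deleted gene, is among the 16. Svep1 was at 4.67 and 5.34 FPKM in WT iWAT and at 2.66 and 2.59 FPKM in H1.2AKO iWAT, a log2 difference of -0.82 (SE 0.11) beside -1.53 in BAT. Cntfr was at 2.03 and 2.62 FPKM in WT iWAT and at 1.23 and 1.36 FPKM in H1.2AKO iWAT. Ciart had a larger log2 difference in iWAT (-1.71) than in BAT (-0.65), with an adjusted p of 0.754 for the difference by limma.

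**Figure D5:**
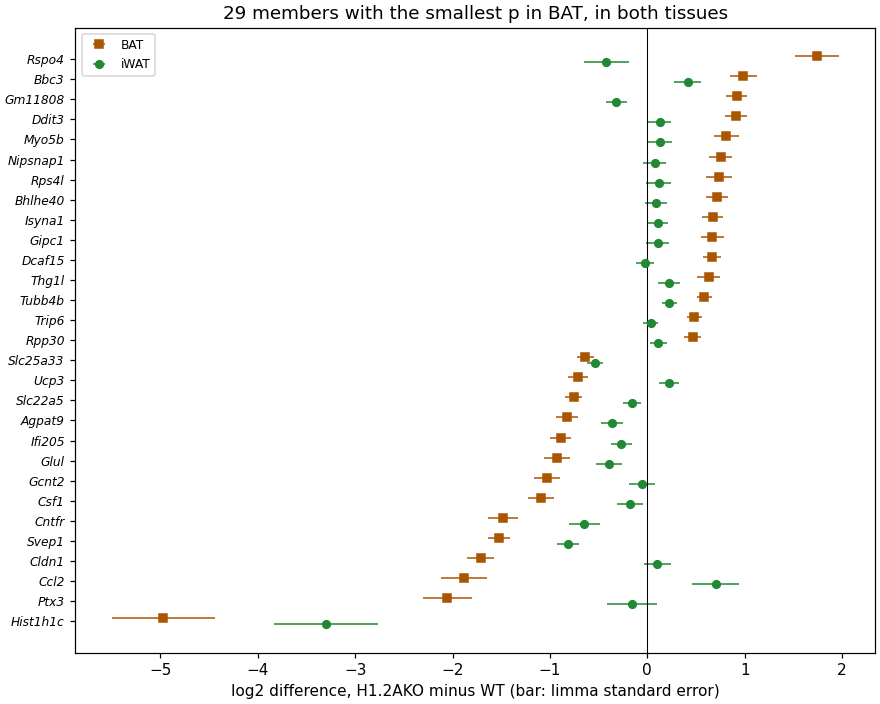
Log2 difference (H1.2AKO minus WT) of 29 of the 30 members with the smallest p values in BAT, of those that do not track muscle and whose BAT groups did not overlap, in BAT (squares) and in iWAT (circles), with limma standard errors as bars. The BAT values, with a spread estimated from both tissues, chose the genes. In iWAT Hist1h1c lay at -3.30 and Svep1 at -0.82, while Ccl2 lay at 0.70 and Rspo4 at -0.42, opposite to BAT.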

How the data were processed

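RNA of BAT and iWAT was sequenced from poly(A)-selected libraries. The authors deposited 1 table of FPKM values, with the length and position of each gene. HISAT2 2.0.5 and the builds GRCm38.p6 and mm10 are in the submitters' processing notes, while the sources used here do not give the read counter, the annotation release or the program behind the FPKM. FPKM times gene length and a denominator per library gave whole reads (within 0.01) for 100% of the values above 0, so 16118634 to 17480325 reads per library were recovered. These denominators were 0.873 to 1.33 times the sums of the reads, so the values carry an added scaling whose origin is unknown. Whether the library kit kept strand is not stated, so overlapping genes cannot be told apart.

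Tests used limma 3.58.1 (R 4.3.3) on log2(FPKM + 0.5), a scale that understates changes of low genes, with a mean per tissue and genotype over all 8 libraries and a trended moderation. The 13190 genes with a mean of at least 0.5 FPKM in BAT were tested, with Benjamini-Hochberg adjustment over all of them. Limma-voom was run on the recovered reads as an alternative. The other alternatives were pseudocounts of 0.1 and 1, no filter, BAT libraries alone, the replicate number as a block, 2 scalings, robust moderation, the muscle level as a covariate and each BAT library left out. The pools are counted as replicates. The sources do not give whether pools shared a litter or day, so p-values measure only the spread between pools.

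Named genes are Hist1h1c and genes the study names, the 15 higher and 15 lower members with the smallest p values among those that do not track muscle and whose groups do not overlap, up to 4 members with the smallest p per gene list, and members called by limma or limma-voom. The members and lists were chosen with earlier results of these data known. Gene lists are described by counts and medians, and no test of a list was made. Results of 3 genes are not reported here. Scripts were tested on simulated data. Promoter sequences are from RefSeq (GRCm38.p6), with no protein sequence used here.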

Additional observations from a re-analysis of the deposited data

Results flagged for a closer look

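In 5 of the 30 members with the smallest p values in BAT, both H1.2AKO libraries lay on one side of both WT libraries in BAT and on the other side in iWAT. Cldn1 was at 0.646 and 0.616 FPKM in WT iWAT and at 0.750 and 0.679 FPKM in H1.2AKO iWAT, and its log2 difference in BAT minus that in iWAT was -1.81 (SE 0.20, adjusted p = 0.27 by limma). Ccl2 was at 3.64 and 3.31 FPKM in WT iWAT and at 5.65 and 6.29 FPKM in H1.2AKO iWAT, and the difference between tissues was -2.58 (SE 0.34, adjusted p = 0.351 by limma). For Ucp3, at 8.61 and 7.30 FPKM in WT iWAT and at 9.03 and 9.65 FPKM in H1.2AKO iWAT, it was -0.936. For Gm11808 it was 1.24, and for Rspo4, with 0.294 FPKM or less in every iWAT library, it was 2.16. The interaction called 0 genes, so none of these differences between tissues passed the test. The BAT values, with a spread estimated from both tissues, chose these genes, so they are given as a description.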

How the results depend on the processing

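Limma called 2 members, Cldn1 and Svep1, with a pseudocount of 0.1 or 1, with quantile normalization within BAT and when p-values were adjusted over the members alone, and limma-voom called 18. With each BAT library left out in turn it called 0 to 13. Without H1.2AKO replicate 2 the 13 held 12 lower members, among them Hist1h1c, Svep1, Ccl2 and muscle genes such as Tnni1, and without H1.2AKO replicate 1 the 2 were Hist1h1c and Lfng. Such fits give the lone library the spread of the other groups. Members at an unadjusted p under 0.05 numbered 427 to 705 higher and 436 to 686 lower over these fits, the lowest without WT replicate 2. With the muscle level as a covariate, 414 were higher and 583 lower. Muscle RNA is lower in both H1.2AKO libraries, so its part and that of genotype cannot be told apart by this fit. With the replicate number as a block, limma called 0 members, with 615 higher and 766 lower at an unadjusted p under 0.05. Replicate 1 minus replicate 2 correlated at 0.17 between the genotypes over members, and with 2 pairs the libraries share only a number. The named genes were largely chosen for small p values in these libraries. Where the groups do not overlap, leaving out a library cannot reverse the sign. It is thus only a description that 125 of 126 named genes kept their sign under all alternatives. The exception was Ucp1, whose log2 difference of 0.05 became -0.18 with quantile normalization and lay between -0.039 and 0.13 with a library left out, and the cause was not tested. The median kept its sign in 28 of 56 gene lists under both scalings, the covariate and each library left out. The interaction of tissue and genotype called 0 members with each pseudocount, the block, limma-voom and each library left out. With 2 pools per genotype, outlying libraries could not be tested.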
